A study of Mus musculus with 11 samples.

Results

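The lysophospholipid and prostanoid receptors are cell surface receptors for small lipids, and 10 of them were chosen by name from the 36670 genes of the deposited table. They were 3 receptors for sphingosine 1-phosphate (S1P), *S1pr1*, *S1pr2* and *S1pr3*, 3 receptors for lysophosphatidic acid (LPA), *Lpar1*, *Lpar3* and *Lpar5*, the prostacyclin receptor *Ptgir*, and the prostaglandin E2 receptors *Ptger1*, *Ptger3* and *Ptger4*. Each of the 10 symbols had 1 row. RNA-Seq was performed on dorsal root ganglia (DRGs), where the somata of primary sensory neurons lie, from 11 mice with 1 library each. The mice were 3 WT controls, 3 WT mice 4 weeks after paclitaxel (PTX, a chemotherapy drug that causes neuropathic pain), 3 *Gpr37l1* KO controls and 2 *Gpr37l1* KO mice 4 weeks after PTX. *Gpr37l1* encodes an orphan G protein-coupled receptor of satellite glial cells, and the sources give the KO allele as tm1Lex, kept with littermates on a C57BL/6 background. The labels call the mice without PTX controls, with the letter V in their descriptions, and the study calls the WT ones naive. No other allele or agent is named, and the age of the sequenced mice (the study gives one only for behavioral tests and biochemical assays), their PTX dose and the spinal levels of the DRGs are not given in the sources used here. Each group held 1 female, and the other 7 mice were male. The groups allow the response of DRG expression to PTX to be compared with and without *Gpr37l1*, a purpose that the sources used here do not state.

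All 10 receptors are G protein-coupled receptors, and sensory neurons, glia, vascular cells and immune cells can each express some of them. S1P, LPA and prostanoids are made from membrane lipids at sites of injury and inflammation, and the prostanoids prostaglandin E2 and prostacyclin are known for sensitizing nociceptors, the action that aspirin-like drugs block by inhibiting cyclooxygenase. The receptors differ in the G protein they use: *Ptgir* and *Ptger4* raise cyclic AMP through Gs, *Ptger3* lowers it through Gi, *Ptger1* raises calcium, and *S1pr1* couples to Gi alone whereas the other S1P receptors and the LPA receptors use several G proteins.

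The promoters of *S1pr3*, *Ptgir* and *Lpar3* are shown because the levels of these receptors were the most strongly correlated from mouse to mouse. The sequences are those of RefSeq on GRCm38.p6, from 250 bases before to 50 bases after the annotated start, on the strand of the gene. Capitals mark the GC box, GGGCGG on either strand, a sequence that Sp family factors can bind.
*S1pr3*, chr13:51408368-51408667, plus strand: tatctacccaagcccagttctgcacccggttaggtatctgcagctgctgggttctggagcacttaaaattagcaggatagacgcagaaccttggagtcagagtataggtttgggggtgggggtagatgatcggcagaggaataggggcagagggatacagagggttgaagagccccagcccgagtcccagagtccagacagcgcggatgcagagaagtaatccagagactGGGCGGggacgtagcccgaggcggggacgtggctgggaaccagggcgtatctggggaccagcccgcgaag
*Ptgir*, chr7:16906240-16906539, plus strand: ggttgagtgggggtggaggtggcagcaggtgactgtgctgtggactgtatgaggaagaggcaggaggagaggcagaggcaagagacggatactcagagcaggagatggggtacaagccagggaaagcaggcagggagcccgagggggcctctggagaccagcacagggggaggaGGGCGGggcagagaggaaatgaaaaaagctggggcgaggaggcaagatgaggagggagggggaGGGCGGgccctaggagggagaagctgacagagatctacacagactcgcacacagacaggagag
*Lpar3*, chr3:146220711-146221010, plus strand: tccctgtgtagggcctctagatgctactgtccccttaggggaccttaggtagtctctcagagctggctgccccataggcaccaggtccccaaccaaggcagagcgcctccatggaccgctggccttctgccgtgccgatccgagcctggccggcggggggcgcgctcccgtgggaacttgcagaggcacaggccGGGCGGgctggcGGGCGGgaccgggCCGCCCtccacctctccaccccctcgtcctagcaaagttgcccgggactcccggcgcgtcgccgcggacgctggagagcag
The table of promoters held 8 of the 10 receptors, and *S1pr1* and *Ptger1* were not matched. The GC box was found in at least 1 promoter of each of the 8, and in 35.66% of the 32851 promoters searched. *Lpar1* and *Lpar5* had more than 1 promoter each, and 1 promoter of *Lpar1* held no GC box. The 8 are counted by gene and the share by promoter, so the 2 are unlike measures. The TATA box TATAAA was found in none of the 8 and in 13.62% of all promoters. The cyclic AMP response element TGACGTCA was found only in *S1pr2* among the 8, and in 1.79% of all promoters. The promoter of *S1pr3* held 14 CpG sites, that of *Ptgir* 6 and that of *Lpar3* 25, against a median of 7 over all promoters. These are matches of letters in a fixed window and were not tested for binding. *S1pr3* held 1 GC box, *Ptgir* 2 and *Lpar3* 3, and none of these 3 promoters held TATAAA or TGACGTCA.

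By position on GRCm38, *S1pr3* is on chromosome 13 from 51408639 to 51422797, *Lpar3* on chromosome 3 from 146220963 to 146286186 and *Ptgir* on chromosome 7 from 16906490 to 16910905, all on the plus strand. *Ptger3* is on chromosome 3 from 157566892 to 157645888 on the plus strand, and *Lpar1* on chromosome 4 from 58435255 to 58553628 on the minus strand. The deposited values are per gene, so differences between transcripts of *Ptger3*, whose splice forms differ in the receptor tail, were not analysed here.

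The estimated counts summed to 52735648 to 80348732 per library, and both KO PTX libraries were at the lower end with 54914928 and 56747335. The targeted gene *Gpr37l1* was at 27.6 to 35.7 FPKM in WT controls, 14.6 to 31.7 in WT PTX mice, 0.21 to 0.29 in KO controls and 0.60 to 1.15 in KO PTX mice, and every KO library was below every WT library. FPKM is the authors' expression level scaled for transcript length and for library size, so it can be compared between genes. Markers of sensory neurons, satellite glial cells and Schwann cells were present in every library, as the DRG label states. The WT control 2 library stood apart: its summed FPKM of 4 markers of peptidergic nociceptors (*Calca*, *Tac1*, *Trpv1* and *Adcyap1*) was 1186, against 662 to 934 in the other 10 libraries. Fold changes of *S1pr3*, *Ptgir* and *Lpar3* that use it, and most of the correlations, are also given without it. In bulk tissue, fewer cells of a type and less RNA per cell cannot be told apart.

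A group of 4 receptors was expressed at several times the level of the others. Over the 11 mice, *S1pr3* was highest at 41.96 ± 7.95 FPKM (SD, n = 11), followed by *Lpar3* at 32.05 ± 5.17, *Lpar1* at 20.81 ± 1.72 and *Ptgir* at 18.61 ± 4.54. *S1pr1* was at 6.01 ± 0.98, *Lpar5* at 3.61 ± 0.66, *Ptger1* at 3.21 ± 0.89, *Ptger4* at 1.88 ± 0.24, *Ptger3* at 1.51 ± 0.27 and *S1pr2* at 0.97 ± 0.17. Among the 34065 genes with a value above 0, *S1pr3* ranked 1026 by mean FPKM and *S1pr2* ranked 13161. Neighbours in this order differed by more than the SD of their log2 ratio within a mouse, except for 3 pairs. *S1pr3* exceeded *Lpar3* in 9 of 11 mice, *Lpar1* exceeded *Ptgir* in 9 of 11, and *Lpar5* exceeded *Ptger1* in 8 of 11, and these differences were smaller than the SD of the ratio. The estimated counts behind the lowest receptor, *S1pr2*, were 349 to 772 per library.

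**Figure D1:**
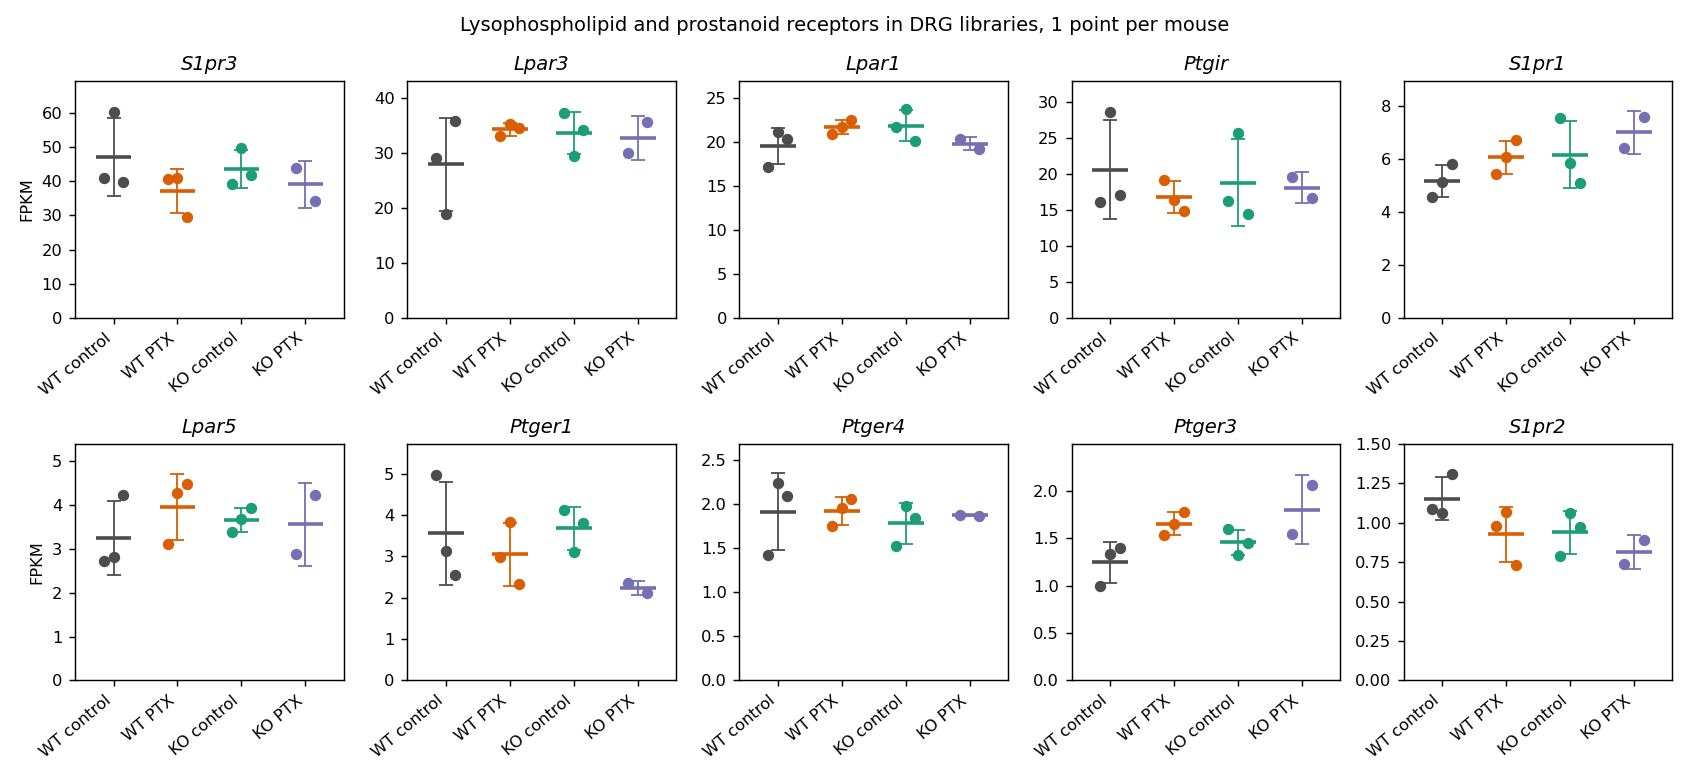
FPKM of the 10 receptors in each mouse, with 1 panel per receptor in order of mean level; points are mice, horizontal bars are group means and error bars are SD, with 3 mice in each group and 2 in the KO PTX group. In the comparisons made, the groups overlap in nearly every panel, and the exceptions are Ptger3 in WT mice, with PTX mice at 1.53 to 1.77 and controls at 1.00 to 1.40, Ptger1 in KO mice, with PTX mice at 2.12 to 2.36 and controls at 3.11 to 4.13, and Lpar1 after PTX, with KO mice at 19.3 to 20.3 and WT mice at 20.9 to 22.5.

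Among the 5 S1P receptors, *S1pr3* supplied most of the expression. It made up 84.9% ± 3.39 (SD, n = 11) of their summed FPKM, and its share ranged from 79.5% to 90.3% over the mice. *S1pr1*, which is needed for endothelial barrier function and for the exit of lymphocytes from lymph nodes, made up 12.6% ± 3.28, and *S1pr2* made up 2.0% ± 0.37. *S1pr4* and *S1pr5*, which were outside the 10 receptors, stayed below 0.5 FPKM on average. In WT controls, *S1pr3* was at 41.1, 60.4 and 39.9 FPKM in mice 1, 2 and 3. In WT PTX mice it was at 40.7, 41.0 and 29.7 FPKM, in KO controls at 39.1, 49.7 and 41.8, and in KO PTX mice 2 and 3 at 44.0 and 34.2. WT control 2 was the highest of all and WT PTX 3 the lowest, and the ranges of the 4 groups overlapped. *S1pr1* ranged from 4.56 FPKM in WT control 1 to 7.57 in KO PTX 3, and *S1pr2* from 0.73 in WT PTX 3 to 1.31 in WT control 3.

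The 6 LPA receptors were led by a pair of genes. *Lpar3* made up 55.3% ± 4.77 (SD, n = 11) of their summed FPKM and *Lpar1*, the receptor tied by earlier work to neuropathic pain and to Schwann cells, made up 36.4% ± 4.45. *Lpar5* made up 6.24% ± 0.74. *Lpar3* was at 29.0, 18.9 and 35.8 FPKM in WT controls 1, 2 and 3, and at 33.0, 35.2 and 34.4 in WT PTX mice. In KO controls it was at 37.2, 29.4 and 34.2 FPKM, and in KO PTX mice 2 and 3 at 29.9 and 35.6. WT control 2, the mouse with the highest *S1pr3*, had the lowest *Lpar3*, and the groups overlapped. *Lpar1* varied least of the 4 most expressed receptors, from 17.2 FPKM in WT control 1 to 23.7 in KO control 2, and *Lpar5* ranged from 2.71 to 4.48 FPKM.

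The 9 prostanoid receptors were more evenly divided. *Ptgir* made up 37.6% ± 7.55 (SD, n = 11) of their summed FPKM, and *Ptgdr*, the prostaglandin D2 receptor that was not among the 10, was second with 31.9% ± 5.15. The prostaglandin E2 receptors had small shares, with *Ptger1* at 6.57% ± 2.06, *Ptger4* at 3.81% ± 0.44 and *Ptger3* at 3.08% ± 0.62. *Ptgir* was at 16.2, 28.6 and 17.1 FPKM in WT controls 1, 2 and 3, and at 19.1, 16.4 and 14.8 in WT PTX mice. In KO controls it was at 16.3, 25.7 and 14.5 FPKM, and in KO PTX mice 2 and 3 at 19.6 and 16.6. The highest values were again WT control 2 and then KO control 2, and the groups overlapped. The sum of the 9 receptors was steadier than *Ptgir*, at 49.3 ± 2.98 FPKM over the 11 mice.

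**Figure D2:**
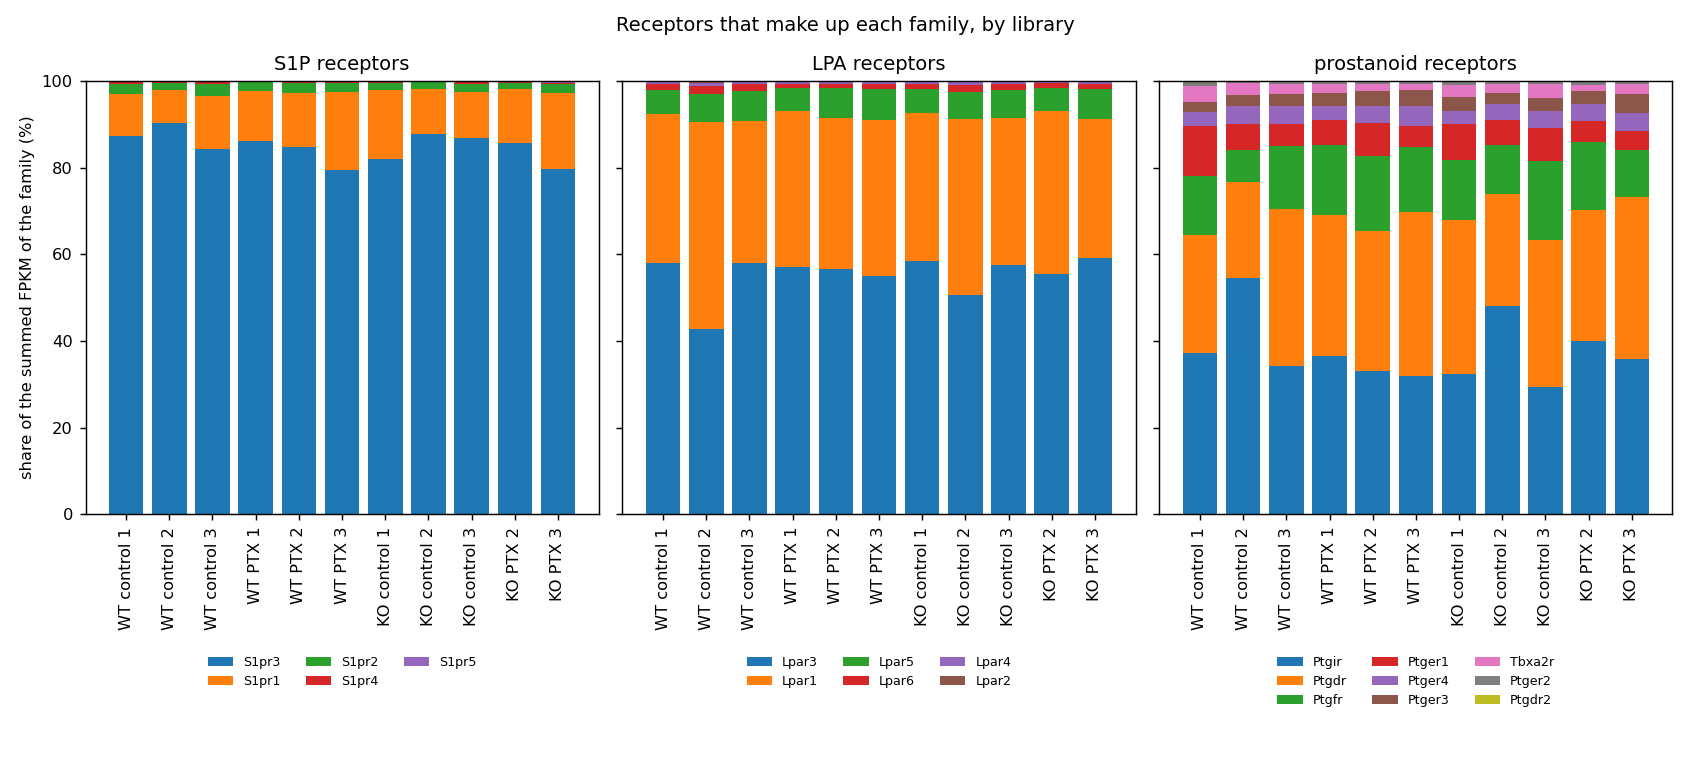
Share of each receptor in the summed FPKM of its family (y axis, percent) in each of the 11 libraries (x axis), for S1P, LPA and prostanoid receptors; colours are genes. S1pr3 holds 79.5% to 90.3% of the S1P receptors in every mouse, whereas the share of Ptgir ranges from 29.4% to 54.6% of the prostanoid receptors, with WT control 2 and KO control 2 highest.

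To ask how PTX changed the receptors in WT mice, the 3 PTX and 3 control mice were compared. *Ptger3* was higher after PTX, at 1.53, 1.65 and 1.77 FPKM against 1.00, 1.33 and 1.40, and the groups did not overlap. *S1pr3* had the lowest fold change of the 10, and its values overlapped. None of the 10 receptors passed an adjusted p of 0.05 by the edgeR quasi-likelihood test, adjusted over 15087 genes by the method of Benjamini and Hochberg, where 1 gene (0.00663% of those tested) passed. At an unadjusted p under 0.05 there were 2 of 10 receptors, *Ptger3* and *S1pr3*, against 13.5% of all genes tested. DESeq2 passed 309 genes and limma 0, and neither passed any of the 10.

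For *Ptger3* the log2 fold change was 0.41 (SE 0.15, edgeR adjusted p = 0.312), with a 95% confidence interval of 0.08 to 0.73. It was the only receptor of the 10 whose ranges did not overlap between WT PTX and WT control mice, against 14.2% of all genes tested. For *S1pr3* the log2 fold change was -0.35 (SE 0.14, edgeR adjusted p = 0.339). Without WT control 2, the *S1pr3* value was -0.19 and that of *Ptger3* was 0.51. Over the alternatives, the adjusted p of *S1pr3* ranged from 0.147 to 0.686 and that of *Ptger3* from 0.186 to 0.685.

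The other receptors had smaller fold changes in WT mice, with intervals that included 0. *Lpar3* was at 0.31 (interval -0.06 to 0.68) and *Lpar5* at 0.30 (-0.07 to 0.68). *Ptgir* was at -0.29 (-0.76 to 0.18), *S1pr2* at -0.32 (-0.72 to 0.08), and *Ptger1* at -0.22 (-0.69 to 0.25). *S1pr1* was at 0.23, *Lpar1* at 0.15 and *Ptger4* at 0.00. *Lpar3* and *Ptgir* rested on WT control 2, without which they were at 0.10 and -0.05. The median log2 fold change of the 10 was 0.08, against -0.01 over all genes tested.

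Between the same mice the summed levels of peptidergic nociceptor markers overlapped and those of macrophage markers did not. The summed FPKM of peptidergic nociceptor markers was 775 to 1186 in WT controls and 663 to 808 in WT PTX mice, and all 4 had a log2 fold change below 0, with *Calca*, the gene of the neuropeptide CGRP, at -0.33 and *Tac1*, the gene of substance P, at -0.35. *Calca* supplied most of this sum, at 557 to 988 FPKM over the 11 libraries. The summed FPKM of 5 macrophage markers (*Cd68*, *Csf1r*, *Adgre1*, *Aif1* and *Mrc1*) was 11.7 to 13.5 in WT controls and 8.02 to 10.1 in WT PTX mice, and none of the 5 was at 0 in any library. Their part in the values of the receptors was not tested.

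In control mice, KO and WT were compared to ask whether loss of *Gpr37l1* alone moved the receptors. None of the 10 receptors passed the edgeR threshold, where 1 gene (0.00663%), *Gpr37l1* itself, passed, and 0 of 10 had an unadjusted p under 0.05, against 7.54% of all genes tested. DESeq2 passed 42 genes with none of the 10 among them, and limma passed 1. The fold changes lay between -0.29 for *S1pr2* and 0.29 for *Lpar3* on the log2 scale, with a median of 0.12 against 0.00 over all genes tested. No receptor had ranges that did not overlap, against 9.28% of genes. *S1pr3* was at -0.10 (95% confidence interval -0.41 to 0.21) with WT control 2 and at 0.06 without it, *Ptgir* was at -0.14 (-0.60 to 0.33) and at 0.11, and *Lpar3* was at 0.29 and at 0.08. The comparison uses the same WT controls as that of PTX in WT mice, so the 2 sets of values are not independent. *S1pr1* was at 0.26 in this comparison and 0.23 in the other, and *S1pr2* at -0.29 and -0.32. *Lpar3* was at 0.29 and 0.31, and at 0.08 and 0.10 without WT control 2.

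In KO mice, *Ptger1* had the lowest fold change after PTX. It was at 2.36 and 2.12 FPKM in KO PTX mice 2 and 3, against 4.13, 3.11 and 3.81 in KO controls, and the groups did not overlap. *Ptger1* is the prostaglandin E2 receptor that raises calcium. Its log2 fold change was -0.67 (SE 0.24, edgeR adjusted p = 0.999), with a 95% confidence interval of -1.21 to -0.13. It ranged from -0.80 to -0.46 when 1 library of either KO group was left out, and the 2 KO PTX mice are the smallest group.

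None of the 10 receptors passed the edgeR threshold in KO mice, where 1 gene (0.00663%) passed, DESeq2 passed 28 and limma 1, with none of the 10 among them. At an unadjusted p under 0.05 there was 1 of 10 receptors, against 4.32% of all genes tested, and 1 of 10 had ranges that did not overlap, against 21.6%. The other 9 lay between -0.22 for *S1pr2* and 0.26 for *Ptger3* on the log2 scale. The median of the 10 was -0.10, against -0.01 over all genes.

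The annotation limits what can be said of *Ptger1*. The gene is on chromosome 8, from 83666678 to 83672753 on the plus strand of GRCm38, and 3875 of its 5459 exonic bases, or 71.0%, overlap annotated exons on the opposite strand. The libraries were made with a stranded kit, but whether the counting used the strand is not given in the sources used here, so reads of the 2 strands may not have been told apart and the level of *Ptger1* is uncertain. The other receptors shared 15.3% or less of their exonic bases with an overlapping gene: *Ptger4* shared 1015 bases with *Gm15937* and 82 with *Ttc33*, *S1pr3* shared 45 with *Gm32834*, and the remaining 7 shared none.

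The ranges of some marker sums did not overlap between KO PTX mice and KO controls, where those of 21.6% of all genes tested did not overlap either. The sum of 6 endothelial markers was 19.1 to 20.7 FPKM in KO PTX mice and 22.0 to 23.7 in KO controls, and none of the 6 was at 0 in any library. The sum of 7 markers of spinal cord glia was 5.41 to 12.6 FPKM in KO PTX mice, 2.0 to 2.86 in KO controls and 2.15 to 5.01 in WT PTX mice, with *Mog*, *Opalin*, *Olig1* and *Olig2* listed at 0 in some libraries. The sum of 6 skeletal muscle markers was 55.5 to 81.3 FPKM in KO PTX mice and 87.9 to 497 in KO controls. Their part in the *Ptger1* value was not tested.

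After PTX, KO and WT mice were compared for the same receptors. *Lpar1* was at 20.3 and 19.3 FPKM in KO PTX mice and at 20.9, 21.8 and 22.5 in WT PTX mice, without overlap, and its log2 fold change was -0.13 (SE 0.10, edgeR adjusted p = 0.993). This was 1 of 10 receptors, against 20.2% of genes with ranges that did not overlap. None of the 10 passed the edgeR threshold and 0 of 10 had an unadjusted p under 0.05, where 0.0133% and 3.55% of all genes did. DESeq2 passed 9 genes and limma 2, with none of the 10 among them. *Ptger1* had the lowest fold change at -0.37 (95% confidence interval -0.90 to 0.17), and *S1pr1* the highest at 0.20 (-0.20 to 0.59). The summed FPKM of 5 markers of large myelinated sensory neurons was 778 to 797 in KO PTX mice and 718 to 773 in WT PTX mice. *Nefh* supplied most of this sum, at 586 to 754 FPKM over the 11 libraries. The sum of spinal cord glia markers given above, 5.41 to 12.6 against 2.15 to 5.01, did not overlap between these groups either, and the part of neither was tested.

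The difference of the PTX effect between KO and WT mice was tested as an interaction in the same edgeR fit. None of the 10 receptors passed, where 1 gene (0.00663%) did, and 0 of 10 had an unadjusted p under 0.05, against 6.3% of genes. DESeq2 passed 12 genes and limma 1, with none of the 10 among them. For *Lpar1* the difference was -0.29 on the log2 scale (95% confidence interval -0.60 to 0.02), and for *Ptger1* -0.45 (-1.15 to 0.26). *Lpar5* was at -0.44 (-1.01 to 0.14), *Lpar3* at -0.39 (-0.96 to 0.17) and *Ptgir* at 0.31 (-0.40 to 1.01). Without WT control 2, the values of *Lpar3* and *Ptgir* were -0.17 and 0.04.

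**Figure D3:**
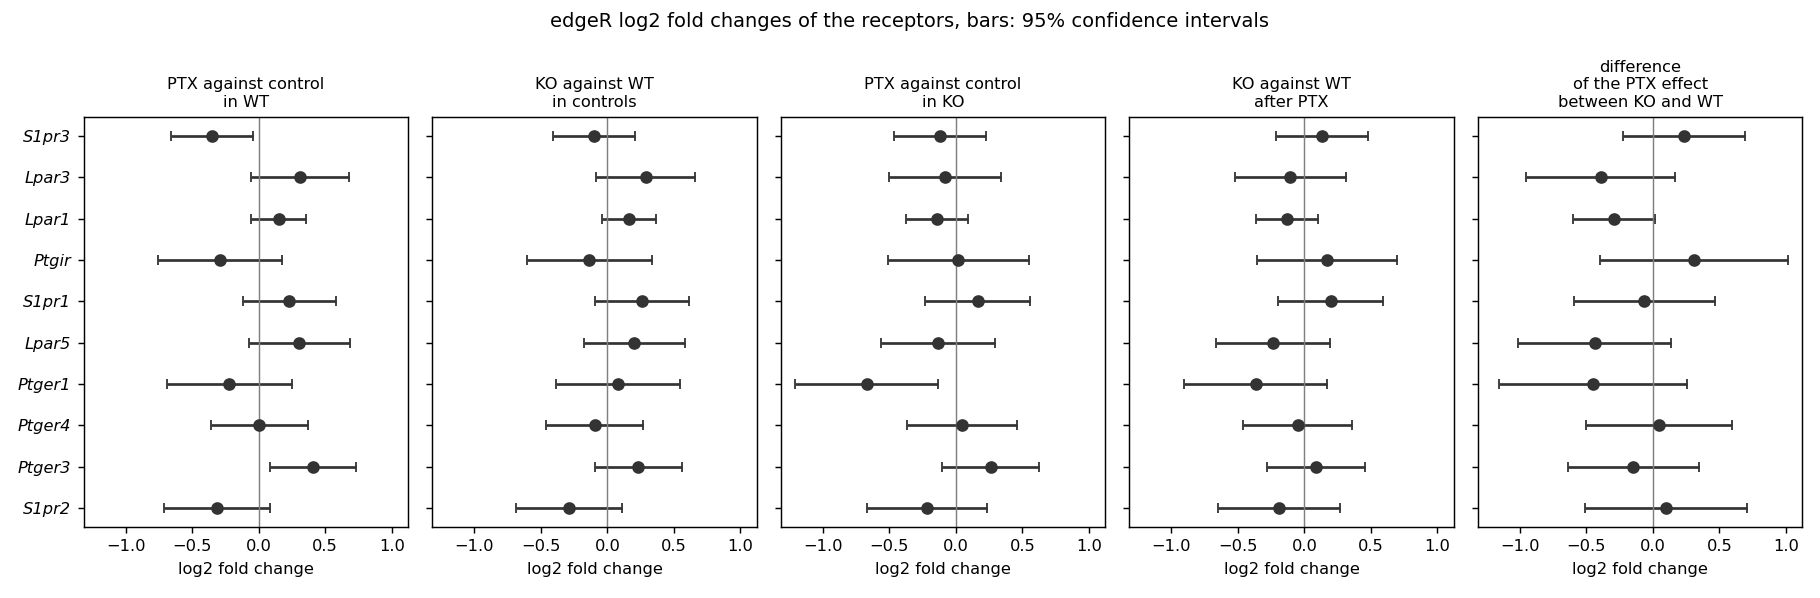
Log2 fold change of each receptor in the 5 comparisons by edgeR (x axis), with receptors in order of mean level (y axis) and bars for 95% confidence intervals. The intervals of Ptger3 and S1pr3 for PTX in WT mice (0.08 to 0.73 and -0.66 to -0.04) and of Ptger1 for PTX in KO mice (-1.21 to -0.13) leave out 0, and no receptor passed the adjusted threshold.

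Variation from mouse to mouse within groups was compared between receptors. After the mean of each group was subtracted from log2(FPKM + 1), *S1pr3* and *Ptgir* were positively correlated over the 11 mice, with Pearson r = 0.846 (exact permutation within groups, two-sided, p = 0.0185) and Spearman rho = 0.755 (p = 0.0185). *S1pr3* and *Lpar3* were negatively correlated, with r = -0.804 (exact permutation p = 0.0185) and rho = -0.745 (p = 0.0347). The sign was the same within each of the 4 groups for both pairs. The 2 KO PTX mice can only give a perfect r, of either sign, and the other groups hold 3 mice each. Weaker pairs also shared the sign in all 4 groups, such as *Lpar5* with *Ptgir* (r = -0.41). *Lpar3* and *Ptgir* were at r = -0.811 (exact permutation p = 0.037) and rho = -0.70 (p = 0.0833), and *S1pr1* and *Ptger3* at r = 0.736 (p = 0.0231) and rho = 0.809 (p = 0.0139).

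Of the 45 pairs of receptors, 4 had a p of r under 0.05 and 0 did after Benjamini-Hochberg adjustment, where the adjusted exact permutation p was 0.347 for the 2 pairs of *S1pr3* and for *S1pr1* with *Ptger3*, and 0.417 for *Lpar3* with *Ptgir*. Without the 2 mice farthest from the median of the first gene, r was 0.755 for *S1pr3* with *Ptgir*, -0.829 for *S1pr3* with *Lpar3*, -0.799 for *Lpar3* with *Ptgir* and 0.701 for *S1pr1* with *Ptger3*. Without WT control 2 alone, r was 0.717, -0.596, -0.606 and 0.759 in the same order. The values of a pair share the library and its depth.

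**Figure D4:**
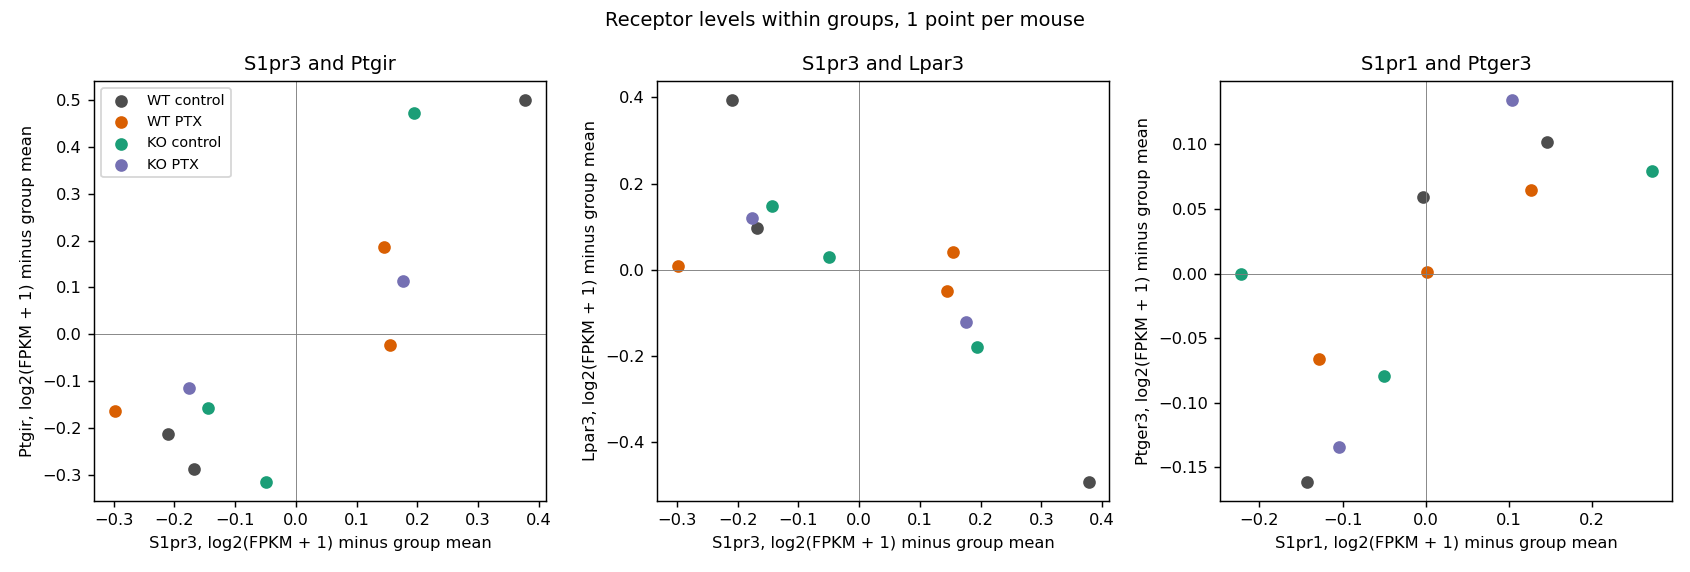
Deviation of log2(FPKM + 1) from the group mean for 3 pairs of receptors, with 1 point per mouse and colours for the 4 groups. S1pr3 and Ptgir lie on a rising line (r = 0.846) with WT control 2 at the upper right, S1pr3 and Lpar3 on a falling line (r = -0.804) with WT control 2 at the lower right, and S1pr1 and Ptger3 on a rising line (r = 0.736).

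The same deviations were set beside those of marker genes of DRG cell types, as a description over the 11 libraries. *S1pr3* was positively correlated with 4 of 4 peptidergic nociceptor markers, from r = 0.844 for *Tac1* to 0.938 for *Calca*, with a median of 0.897, or 0.818 without WT control 2. It was negatively correlated with 3 of 4 markers of non-peptidergic nociceptors, with a median of -0.559, or -0.394 without that library. *Lpar3* showed the opposite arrangement, with 0 of 4 peptidergic markers positive (median -0.762, or -0.462 without WT control 2) and 3 of 4 non-peptidergic markers positive (median 0.614, or 0.672 without it). *Lpar3* was also positive with 5 of 5 fibroblast markers (median 0.726, or 0.779 without it) and with 3 of 3 markers of C low-threshold mechanoreceptors (median 0.698, or 0.239 without it), so its correlations were not limited to nociceptor markers. Those of *S1pr3* were not either. Its r with the 5 satellite glial cell markers ranged from -0.592 for *Slc1a3* to 0.796 for *Fabp7* (median -0.043, or -0.162 without WT control 2). *S1pr3* was positive with 1 of 6 skeletal muscle markers (median -0.1), and with 6 of 6 without WT control 2 (median 0.72). *Ptgir* was positive with 4 of 4 peptidergic markers, with a median of 0.693 that fell to 0.333 without WT control 2. It was positive with 1 of 6 skeletal muscle markers (median -0.194), and with 6 of 6 without WT control 2 (median 0.53). Among the 5 satellite glial cell markers its r ranged from -0.473 for *Slc1a3* to 0.895 for *Kcnj10*, with a median of 0.208, or -0.063 without WT control 2. *Lpar5* was positive with 4 of 4 non-peptidergic markers, with *Mrgprd*, which marks a class of these neurons, highest at 0.927, and the median was 0.704, or 0.73 without WT control 2. It was also positive with 4 of 5 fibroblast markers (median 0.639, or 0.597 without WT control 2). With markers of pericytes and smooth muscle it was positive for 4 of 4 (median 0.457, or 0.432 without that library). Other receptors shared these signs. *Lpar1* and *Ptger4* were positive with 4 of 4 peptidergic markers (medians 0.414 and 0.323, or 0.087 and -0.103 without WT control 2). *Lpar5* and *S1pr1* were positive with 0 of 4 (medians -0.556 and -0.331, or -0.528 and -0.456 without that library). *Ptger3*, *S1pr1* and *S1pr2* were positive with 4 of 4 non-peptidergic markers (medians 0.475, 0.276 and 0.36). Without WT control 2 these medians were 0.792, 0.37 and 0.286.

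Markers of Schwann and endothelial cells were compared in the same way. *Ptger1* was positive with 5 of 5 markers of myelinating Schwann cells (median 0.569) and *Ptger4* and *Lpar1* with 0 of 5 (medians -0.527 and -0.426). Without WT control 2 these medians were 0.549, -0.438 and -0.508. *Ptger1* was also positive with 6 of 6 skeletal muscle markers (median 0.424, or 0.44 without WT control 2). As given above, 71.0% of its exonic bases overlap exons on the opposite strand, so these r values may not be those of *Ptger1* alone. *S1pr2* was positive with 6 of 6 endothelial markers (median 0.505, or 0.669 without WT control 2), and *S1pr1*, *Lpar1*, *Lpar5*, *Ptger3* and *Ptger4* each with 5 of 6 (medians 0.281 to 0.56, or 0.265 to 0.666 without it). The remaining marker was negative, with r at -0.542, -0.389, -0.334, -0.827 and -0.465 in that order. It was *Cldn5* for *S1pr1*, *Lpar1*, *Lpar5* and *Ptger3*, so the endothelial markers were split. *S1pr2* was also positive with all markers of pericytes and smooth muscle (4 of 4, median 0.573), fibroblasts (5 of 5, median 0.555), skeletal muscle (6 of 6, median 0.541) and myelinating Schwann cells (5 of 5, median 0.487), so the endothelial values did not stand apart. WT control 2, with a peptidergic sum of 1186 FPKM and a non-peptidergic sum of 223.9 FPKM, the lowest beside the 224.1 of WT control 1, was the mouse with the highest *S1pr3* and *Ptgir* and the lowest *Lpar3*. KO control 2 had the second highest peptidergic sum, 934 FPKM, and the second highest *S1pr3* and *Ptgir*. Whether these libraries held more peptidergic neurons or more RNA in each was not tested.

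**Figure D5:**
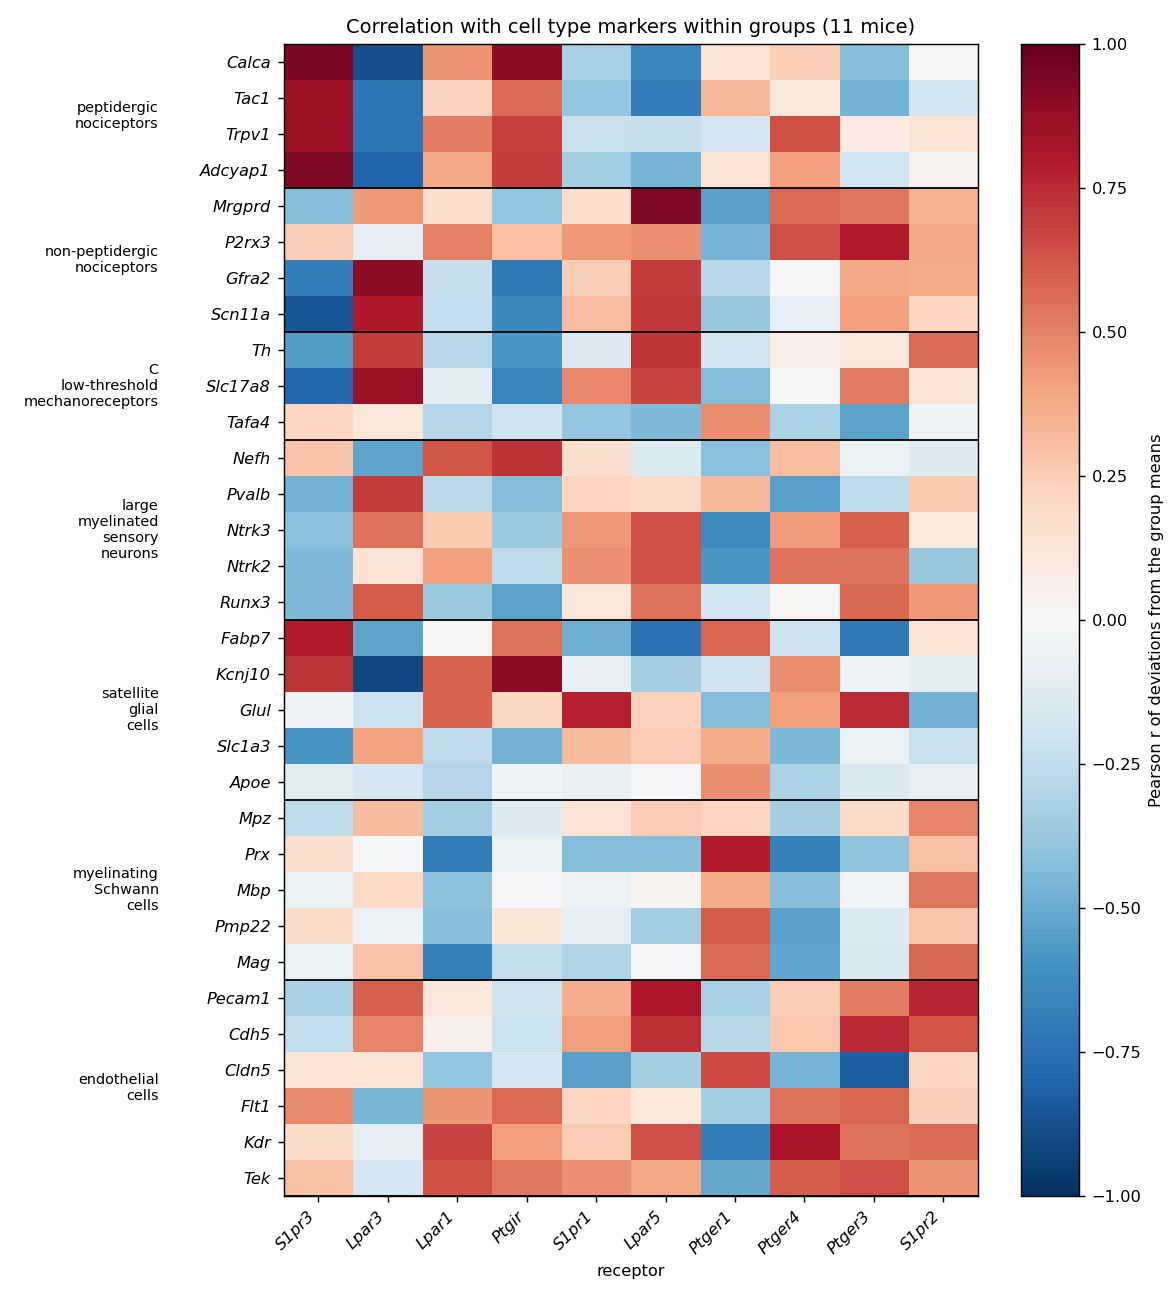
Pearson r of the deviations from the group means between each receptor (x axis, in order of mean level) and marker genes of 7 cell types (y axis) over 11 mice, from blue (negative) to red (positive). The columns of S1pr3 and Ptgir are red and that of Lpar3 is blue across the peptidergic nociceptor markers, and Lpar3 and Lpar5 are red across most of the non-peptidergic ones. Other columns share these signs. Across the peptidergic markers Lpar1 and Ptger4 are also red and Lpar5 and S1pr1 also blue. Ptger3, S1pr1 and S1pr2 are also red across the non-peptidergic ones.

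Over all 15087 genes tested, the genes most like each receptor by the same measure were named for the 9 receptors with a mean of at least 1 FPKM. For *S1pr3* they were *Ngfr*, the low-affinity neurotrophin receptor, and *Crtac1* (r = 0.97 for both). For *S1pr1* the nearest was *Cd93*, an endothelial and myeloid surface protein (0.972), followed by *Gm16267* (0.945). *Clmp* (0.972) and *Zc3hav1* (0.95) were nearest to *Lpar1*, *Tonsl* (0.975) and *Nupr1* (0.966) to *Lpar3*, and *Mtcp1* (0.967) and *Marchf9* (0.964) to *Lpar5*. *Gm43398* (0.966) and *Lgmn*, a lysosomal protease (0.957), were nearest to *Ptgir*. *Ccdc107* (0.969) and *Hspbp1* (0.965) were nearest to *Ptger1*, *Kif21b* (0.971) and *Nnt* (0.961) to *Ptger3*, and *Ppp1r12a* (0.982) and *Tnpo3* (0.978) to *Ptger4*. These are the highest values among all genes tested, over 11 mice, and are given as a description. Without WT control 2 the r of these genes was 0.916 to 0.979. Without subtraction of the group means it was 0.436 to 0.944, and lowest for *Nupr1* with *Lpar3* (0.436), *Cd93* with *S1pr1* (0.463) and *Nnt* with *Ptger3* (0.506).

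The other genes of the pathways were taken from fixed lists, and none of them passed the edgeR threshold in any of the 5 comparisons. For PTX in WT mice, an unadjusted p under 0.05 was found for 2 of 4 tested receptors outside the 10, 0 of 6 S1P genes, 2 of 7 LPA genes, 0 of 9 prostanoid genes and 4 of 9 G protein alpha subunits, against 13.5% of all genes, and the median log2 fold changes of these lists were -0.05, -0.10, 0.03, -0.10 and 0.03, against -0.01 over all genes. In KO against WT controls it was found for 3 of 7 LPA genes (*Enpp2*, *Plpp3* and *Gdpd3*, at log2 fold changes of 0.31, 0.22 and -0.42, chosen after their values were seen) and for none in the other lists, against 7.54% of all genes. For PTX in KO mice there was none in these lists, against 4.32%, and 1 of 9 G protein alpha subunits was found for KO against WT after PTX (*Gnai2*, at 0.22, against 3.55%) and 1 of 9 for the difference of the PTX effect (*Gnai1*, at -0.39, against 6.3%). DESeq2 and limma were not counted for these lists. Of the 10 other receptors of the 3 families, 4 were expressed above the filter of 0.5 mean FPKM (*Ptgdr*, *Ptgfr*, *Tbxa2r* and *Lpar6*). *Ptgdr* was at 11.5 to 18.2 FPKM in WT controls and 16.0 to 17.6 in WT PTX mice, with a log2 fold change of 0.31 (SE 0.13, edgeR adjusted p = 0.348), and *Tbxa2r*, the thromboxane receptor, was at -0.68 (SE 0.30, adjusted p = 0.365). Of the S1P genes, 6 of 8 were tested, and the phosphatase gene *Sgpp2* was highest at 43.7 ± 6.20 FPKM (SD, n = 11), followed by *Sgpp1* at 15.6 ± 1.37, *Sphk2*, an S1P-making kinase, at 11.3 ± 0.86 and *Sgpl1*, the S1P lyase, at 9.65 ± 0.91. Their fold changes in WT mice after PTX lay between -0.17 and 0.19 on the log2 scale.

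Of the LPA genes, 7 of 9 were tested. The phosphatase genes *Plpp1* and *Plpp3* were at 28.1 ± 2.51 and 25.0 ± 2.64 FPKM (SD, n = 11), and *Gdpd1* and *Gpcpd1* at 16.5 ± 1.10 and 12.7 ± 1.51. *Enpp2*, which encodes the LPA-making enzyme autotaxin, was outside the 4 highest and is named after its values were seen, with a log2 fold change of 0.28 (SE 0.12, edgeR adjusted p = 0.37) in WT mice after PTX and 0.31 (SE 0.12, adjusted p = 0.657) in KO against WT controls. Of the prostanoid genes, 9 of 13 were tested. *Ptgds*, the lipocalin-type prostaglandin D synthase, was highest and most variable, from 15.4 to 291 FPKM over the mice, followed by *Ptges3* at 46.0 ± 3.94, *Abcc4* at 4.4 ± 0.55 and *Ptges2* at 4.0 ± 0.36. Its log2 fold change was -1.49 (SE 0.94, edgeR adjusted p = 0.999) in KO mice after PTX. The inducible cyclooxygenase *Ptgs2*, named after its values were seen, was at 0.01 to 0.15 FPKM and was not tested. The 9 G protein alpha subunits were all tested, with *Gnas*, which encodes Gs, at 136 ± 7.16 FPKM, *Gnao1* at 79.9 ± 9.98, *Gnai2* at 66.6 ± 6.04 and *Gnaq*, which encodes Gq, at 49.5 ± 4.53.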

How the data were processed

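RNA-Seq of mouse DRGs was analysed from 1 table of all 11 libraries. Its FPKM values, scaled by the authors for transcript length and library size, and its estimated counts, deposited by the authors without normalization, were used as deposited, and counts were rounded to whole numbers. The submitters' processing notes name cutadapt, FastQC, HISAT2, StringTie and the mm10 build, and their versions and settings are not given in the sources used here. Groups, sex and replicate numbers came from the labels. Titles number the KO PTX mice 1 and 2 and descriptions 2 and 3, and the latter were used. Replicate 3 is the female of each group, so sex and that number cannot be told apart.

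The 15087 of 36670 genes whose FPKM averaged 0.5 or more were tested on counts with edgeR 4.0.16 in R 4.3.3, using TMM, the quasi-likelihood test and a fit of all libraries with group and sex. The threshold was a Benjamini-Hochberg adjusted p of 0.05. Standard errors were derived from the log2 fold change and its F statistic, and 95% confidence intervals used the t distribution with the fit's degrees of freedom. Total counts of 52735648 to 80348732 per library limit the precision of low genes. The intervals give the uncertainty of a difference of group means, estimated from the spread between mice. Alternatives were DESeq2 1.42.0, limma 3.58.1 on log2(FPKM + 1) and log2(FPKM + 0.1), other scalings, filters and covariates, and leaving out each library. Pearson and Spearman correlations used log2(FPKM + 1) minus the group mean, with exact permutation within groups (432 arrangements, smallest p 0.00231). Tables and plots were made with pandas 2.3.3, matplotlib 3.10.9 and numpy 2.4.6 in Python 3.11.15. The fit was tested on simulated data. Gene positions came from GENCODE release M21 of GRCm38, where 36532 identifiers were found.

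Correlations with markers and with the genes most like each receptor were also computed without WT control 2, an alternative chosen after seeing the data. The 10 receptors, the pathway lists and the marker lists were chosen with earlier results of these data known. Genes named beside the receptors were the 4 highest of each pathway list, any of them past the threshold, the 2 genes most like each receptor and markers of lists whose sums did not overlap between groups. Some markers and an overlapping gene are not reported here, and the marker sums were computed without those markers. Markers and overlapping genes named otherwise were chosen after their values were seen.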

Additional observations from a re-analysis of the deposited data

How the results depend on the processing

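None of the 10 receptors passed the threshold under any of the 9 alternatives to the edgeR fit or without any of the 11 libraries. Of 445 fold changes of receptors under the 9 alternatives, 5 had the opposite sign, and of 550 with 1 library left out, 37 had. *S1pr2* was not tested at a mean FPKM of at least 1. Whether the replicate numbers paired the mice could not be settled. Over 15 pairs with the same number, the correlation of deviations from the group means ranged from -0.23 to 0.23. The median was 0.06, and 5 were over 0.1. Over 30 pairs with different numbers it ranged from -0.23 to 0.24, with a median of -0.03, and 4 were over 0.1. Deviations from the mean of so few mice in a group depend on each other, so these values cannot exclude pairing. With a replicate block in place of sex, 0 receptors passed in each comparison, and *Ptgir* was at -0.062 and *Ptger4* at -0.049 for PTX in KO mice, and *Ptger4* at -0.074 for the difference of the PTX effect. Without the sex term *Ptgir* was at -0.064 in KO mice after PTX, and with filterByExpr *Ptger4* was at -0.0004 in WT mice.

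For PTX in WT mice, 1 gene passed in the edgeR fit, 2 passed with no filter, 0 without the sex term and 0 by limma with either pseudocount, and DESeq2 passed 309. DESeq2 passed 42 genes for KO against WT controls, 28 for PTX in KO mice, 9 for KO against WT after PTX and 12 for the difference of the PTX effect, against 1, 1, 2 and 1 by edgeR. The cause was not tested. With 1 library left out, the counts by edgeR ranged from 0 to 30 for PTX in WT mice (30 without WT control 3, and 0 without WT control 1, WT PTX 1, WT PTX 2 or KO PTX 3), from 1 to 4 for KO against WT controls (4 without KO control 3), from 1 to 7 for PTX in KO mice (7 without KO control 2 or KO PTX 2), from 2 to 7 for KO against WT after PTX and from 1 to 6 for the difference of the PTX effect (both highest without KO PTX 2).

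The receptors whose log2 fold change took both signs with 1 library left out were these. For PTX in WT mice, *Ptger1* ranged from -0.37 to 0.059 and *Ptger4* from -0.16 to 0.17. For KO against WT controls, *S1pr3* ranged from -0.22 to 0.064, *Ptgir* from -0.39 to 0.11, *Ptger1* from -0.10 to 0.35 and *Ptger4* from -0.26 to 0.071. For PTX in KO mice, *S1pr1* ranged from -0.073 to 0.34, *Lpar3* from -0.19 to 0.036, *Ptgir* from -0.12 to 0.25 and *Ptger4* from -0.0397 to 0.18. For KO against WT after PTX, *Ptger3* ranged from -0.058 to 0.25 and *Ptger4* from -0.11 to 0.0077. For the difference of the PTX effect, *S1pr1* ranged from -0.30 to 0.11, *S1pr2* from -0.12 to 0.29, *Ptger3* from -0.28 to 0.026 and *Ptger4* from -0.13 to 0.22.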

Other observations

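The summed levels of satellite glial cell, myelinating Schwann cell and non-peptidergic nociceptor markers overlapped between the groups in each comparison, and those of macrophage and lymphocyte markers did not in some. The summed FPKM of 5 satellite glial cell markers was 971 to 1409 in WT controls, 1013 to 1192 in WT PTX mice, 1062 to 1225 in KO controls and 1017 to 1192 in KO PTX mice. *Apoe* supplied most of this sum, at 711 to 1080 FPKM over the 11 libraries, whereas *Fabp7* was at 84.2 to 223 and *Kcnj10* at 14.6 to 22.5. The sum of 5 myelinating Schwann cell markers was 1740 to 2142 in WT controls, 1513 to 1883 in WT PTX mice, 1679 to 1941 in KO controls and 1215 to 1926 in KO PTX mice. Non-peptidergic nociceptor markers summed to 224 to 280.0 FPKM in WT controls and 238 to 277 in the other groups. The macrophage sum was 9.71 to 11.3 FPKM in KO controls, below the 11.7 to 13.5 of WT controls, and 8.74 to 10.2 in KO PTX mice. The lymphocyte markers were low in all libraries, at most 0.31 FPKM in sum, with *Cd8a* listed at 0 in some libraries, and their sum was 0.08 to 0.14 in WT PTX mice against 0.16 to 0.21 in WT controls. Markers of *Mrgpra3* pruriceptors, *Nppb* and *Sst* pruriceptors, C low-threshold mechanoreceptors, cold-sensing neurons, pericytes and smooth muscle, fibroblasts and red blood cells overlapped between groups in each of the 4 comparisons.

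The genes past the edgeR threshold outside the receptors were *Per3* for PTX in WT mice (log2 fold change 1.04, SE 0.10, adjusted p = 0.0145), *Gpr37l1* for both comparisons of KO with WT mice, and *Pde10a* for PTX in KO mice, for KO against WT after PTX and for the difference of the PTX effect. *Per3* is a clock gene, and *Pde10a* encodes an enzyme that breaks down cyclic nucleotides, the second messenger that *Ptgir* and *Ptger4* raise and *Ptger3* lowers. Both are named after their values were seen.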
